A study of Mus musculus with 22 samples.

Results

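Plat, Plaur, Serpine2 and the 4 tissue inhibitors of metalloproteinases (Timp1, Timp2, Timp3 and Timp4) were followed in the hypothalamus of obese mice after fibroblast growth factor 1 (FGF1). These 7 genes were taken by symbol, with earlier results of these data known, from the 21260 genes counted in single nuclei (20668 genes) or in whole cells (16304 genes). All mice were male ob/ob mice, which lack leptin, of about 11 weeks, and each library came from 1 mouse. FGF1 mice received 3 µg of FGF1 in a single intracerebroventricular (icv) injection, and vehicle mice received icv PBS and were pair-fed (PF), so that they ate what the FGF1 mice ate. Nuclei were profiled on Day 1 (3 FGF1 and 3 vehicle mice, 8620 and 4586 nuclei) and on Day 5 (2 and 2 mice, 7986 and 3773 nuclei). Whole cells were profiled on Day 5 in a separate cohort that was kept on another chow (6 and 6 mice, 25767 and 29123 cells), after enzymatic dissociation and with neurons removed by the authors. All groups lacked leptin and no lean mice were included, so the comparisons describe FGF1 against PF vehicle in obese mice only.

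Plat encodes tissue plasminogen activator, a secreted protease that converts plasminogen to plasmin, and Plaur encodes the urokinase receptor, which gathers the other plasminogen activator at the cell surface. Plasmin cleaves fibrin and matrix proteins and activates matrix metalloproteinases. Serpine2 (protease nexin 1) is a secreted inhibitor of thrombin and plasminogen activators that glia are known to make, and the Timps are secreted inhibitors that bind metalloproteinases in their active site. Timp3 stays bound to the extracellular matrix and also inhibits several ADAM and ADAMTS proteases, Timp2 also takes part in activating Mmp2, and Timp1 is known as an inducible gene of reactive glia.

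Values are counts of unique molecular identifiers (UMIs), summed per mouse and cell type and given as CPM, the counts scaled to a common total with TMM factors, as mean ± SD over mice (n = 3 per group in Day 1 nuclei, 2 in Day 5 nuclei and 6 in whole cells unless another n is given). Marker sums, pooled levels and levels over all nuclei or cells of a mouse are CPM without TMM factors. A gene was called where edgeR's quasi-likelihood test gave a Benjamini-Hochberg false discovery rate (FDR) under 0.05 over all genes tested in that cell type. Log2 fold changes are FGF1 over vehicle, with the standard error (SE). Libraries held 3529889 to 12612245 UMIs in Day 1 nuclei, 2721087 to 16345981 in Day 5 nuclei and 2652897 to 11866269 in whole cells, and Day 1 FGF1 nuclei were shallower (median 2029 to 2816 UMIs per nucleus) than vehicle nuclei (3178.5 to 3776). Of 24645 distinct barcode sequences 318 occurred in more than 1 library of nuclei, and 1791 of 53065 did so in whole cells.

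By fixed markers, the nuclei annotated as astrocytes (Astro), ependymal cells (Epend) and vascular and leptomeningeal cells (VLMC) each carried all 6 markers of their class, and those annotated as tanycytes (Tany) carried 5 of 7. Epend and Tany nuclei carried all 6 astrocyte markers as well. On Day 1, nuclei annotated as oligodendrocytes (Olig) held 13563 CPM (FGF1) and 13351 CPM (vehicle) of 5 neuron markers, microglia (Micro) 13879.9 and 14959 CPM and committed oligodendrocyte precursors (COP) 10829 and 11873 CPM, beside 16585 and 16273 CPM in unmapped neurons. Values under these 3 labels are of nuclei with neuronal RNA. Lower sums of the neuron markers were also found in Tany (5940 and 6231 CPM), Astro (4079 and 5303 CPM) and VLMC (3113 and 4073 CPM), and their part in the values under these labels was not tested. Whole cells carry only cluster numbers, and clusters were named by markers. The astrocytes fell into cluster 1, with 16.2% of its cells from FGF1 mice, and cluster 4, with 83.0%. FGF1 cells also made up 82.2% of tanycyte cluster 7 and 57.4% of tanycyte cluster 0, and ependymal cluster 6 was split evenly (1794 FGF1 and 1781 vehicle cells).

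By the GENCODE annotation of GRCm38, the genes lie on 7 chromosomes: Plat on chromosome 8 (22757727 to 22782844, plus strand), Plaur on chromosome 7 (24462484 to 24475968, plus), Serpine2 on chromosome 1 (79794197 to 79861180, minus), Timp1 on chromosome X (20870166 to 20874735, plus), Timp2 on chromosome 11 (118301069 to 118355740, minus), Timp3 on chromosome 10 (86300372 to 86349506, plus) and Timp4 on chromosome 6 (115241892 to 115252205, minus). Synapsin genes on the opposite strand enclose some of them, Timp1 in Syn1, Timp3 in Syn3 and Timp4 in Syn2, and Timp2 overlaps Cep295nl on its own strand. Timp4 also lies inside Gm17482 on the opposite strand. The strand setting of the counting is not given in the sources used here, so reads of these pairs may not be separable. Beside the Timp results, Syn1 in Day 1 astrocytes differed by -0.07 on the log2 scale (edgeR FDR 0.993) and Syn3 in Day 1 tanycytes by 0.10 (FDR 0.946). Syn3 in Day 1 astrocytes differed by -0.37 (FDR 0.981). Syn2 differed by -0.59 in Day 1 astrocytes (FDR 0.898) and by -0.59 in Day 1 tanycytes (FDR 0.394). None of these was called, and their part in the Timp levels was not tested.

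The 250 bases before the start of Timp1 and Plaur are shown because these 2 genes had the largest fold changes of the 7 on Day 1. They are RefSeq sequence of GRCm38.p6 on the plus strand, at chrX:20869916-20870165, inside the body of Syn1, and at chr7:24462233-24462482. Capitals mark the matches to the 5 motifs searched on both strands.

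Timp1: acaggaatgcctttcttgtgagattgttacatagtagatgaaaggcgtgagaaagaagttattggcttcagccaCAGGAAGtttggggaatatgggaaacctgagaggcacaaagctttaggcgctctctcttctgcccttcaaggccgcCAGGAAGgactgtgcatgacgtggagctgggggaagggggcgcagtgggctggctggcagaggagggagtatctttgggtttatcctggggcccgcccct
Plaur: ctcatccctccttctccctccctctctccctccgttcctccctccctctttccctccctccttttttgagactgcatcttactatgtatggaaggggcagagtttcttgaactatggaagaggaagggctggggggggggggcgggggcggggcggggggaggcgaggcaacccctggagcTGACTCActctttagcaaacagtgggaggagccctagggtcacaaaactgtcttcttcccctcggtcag

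The AP-1 motif TGAGTCA, which Fos and Jun proteins bind, was found in Plaur at base -69 from the start, on the minus strand, and in 5.202% of 32851 mouse promoters of the same window (250 bases before to 50 after the start). The ETS motif CAGGAAG was found in Timp1 at bases -176 and -100 and again at base 40 after the start, and 13.27% of promoters held it at least once while 0.128% held it 3 or more times. Timp1 also held TGAGTAA at base 27 (2.679% of promoters). The cAMP response element TGACGTCA (1.790%) and the STAT motif TTCNNNGAA (8.298%) were in none of the 6 members with a sequence in the table, which were all but Plat. Serpine2, Timp3 and Timp4 each held CAGGAAG in 1 place, at bases -26, -205 and -111. These are matches of letters only.

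On Day 1, 1 day after the injection, Timp1, Plaur, Plat and Timp3 were higher after FGF1 in cells of the ventricle wall, in astrocytes or in VLMC, and Serpine2, Timp2 and Timp4 had no call. In the 18 cell types with enough nuclei, 40 of 126 pairs of gene and type passed the filter on low counts, and 8 of them were called, all with a positive fold change. For the 5 calls of Timp1 and Plaur the direction was fixed by the filter, since with 1 to 3 vehicle UMIs they passed it through the FGF1 mice. The calls of Plat in Tany (2 to 5 UMIs per vehicle mouse) and Epend (3 to 7) passed it through the FGF1 mice too. Their direction was fixed as well. The background was 1.05% of all tests of genes in types on Day 1 (756 of 72292). It was 9.14% in Tany, where 4 of 6 tested members were called, 19.0% in Epend (1 of 3), 1.55% in Astro (2 of 7) and 2.26% in VLMC (1 of 3). The calls in Astro and VLMC were all of Timp1 or Plaur, and that in Epend was of Plat. Only Timp3 in Tany had a free direction, so these shares of members cannot be set against the background. In Epend nuclei calls were common among all genes. A further 6 pairs passed an unadjusted p of 0.05 without a call, which makes 14 in all. The filter on low counts let Timp1 be tested in 4 types and Plaur in 2.

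Plat, the plasminogen activator, rose in tanycytes and ependymal cells. In Tany nuclei of the FGF1 mice it stood at 227, 152 and 176 CPM and in those of the vehicle mice at 27.4, 34.9 and 26.5 CPM, so the groups lay far apart (185 ± 38.5 against 29.6 ± 4.60, log2 2.62 ± 0.431, FDR 0.00278). In Epend nuclei the values were 176, 269 and 427 CPM against 97.0, 47.8 and 104 CPM. These groups did not overlap either, although the FGF1 mice spread widely (290.5 ± 127 against 82.8 ± 30.5, log2 1.80 ± 0.445, FDR 0.00825), and the call was lost without vehicle replicate 2 (FDR 0.0539). In Astro nuclei Plat had 278, 213 and 165 CPM against 76.7, 54.8 and 51.3 CPM and missed the threshold (log2 1.85 ± 0.436, FDR 0.0696), as it did in VLMC with 243 and 250 against 48.9 to 63.8 CPM (log2 2.04, FDR 0.375). The log2 fold change of Plat was above 0 in all 6 types where it was tested, but in Tany, Epend and VLMC it passed the filter through the FGF1 mice.

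Plaur, the urokinase receptor, was almost without UMIs in vehicle nuclei and rose in tanycytes and astrocytes. Tany nuclei of FGF1 mice held 163, 114 and 113 CPM, from 85 UMIs, and those of vehicle mice held 0, 6.98 and 0 CPM, from 1 UMI. The groups were apart in every comparison of mice (130 ± 28.4 against 2.33 ± 4.03, edgeR log2 5.27 ± 0.735, FDR 0.00135), and the ratio of pooled counts was 48.7 with an exact 95% counting interval of 8.52 to 1948. In Astro nuclei the values were 93.7, 75.9 and 59.1 CPM against 0, 1.71 and 0 CPM, or 139 UMIs against 1 (log2 5.93 ± 0.696, FDR 0.00285, pooled ratio 77.8, interval 13.7 to 3094), and without vehicle replicate 1 the FDR was 0.0563. In both types the only vehicle UMI came from replicate 2. Epend nuclei (147, 122 and 142 CPM, 28 UMIs) and VLMC (173 and 166 CPM, 15 UMIs) had no UMI of Plaur in any vehicle mouse and were left out by the filter. Against a floor of 3 counts over the vehicle group, Plaur was at least 9.02-fold higher in Epend and at least 8.84-fold higher in VLMC. Intervals and floors cover counting error only. In the other types the FGF1 mean was 12.2 CPM or lower.

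**Figure D1:**
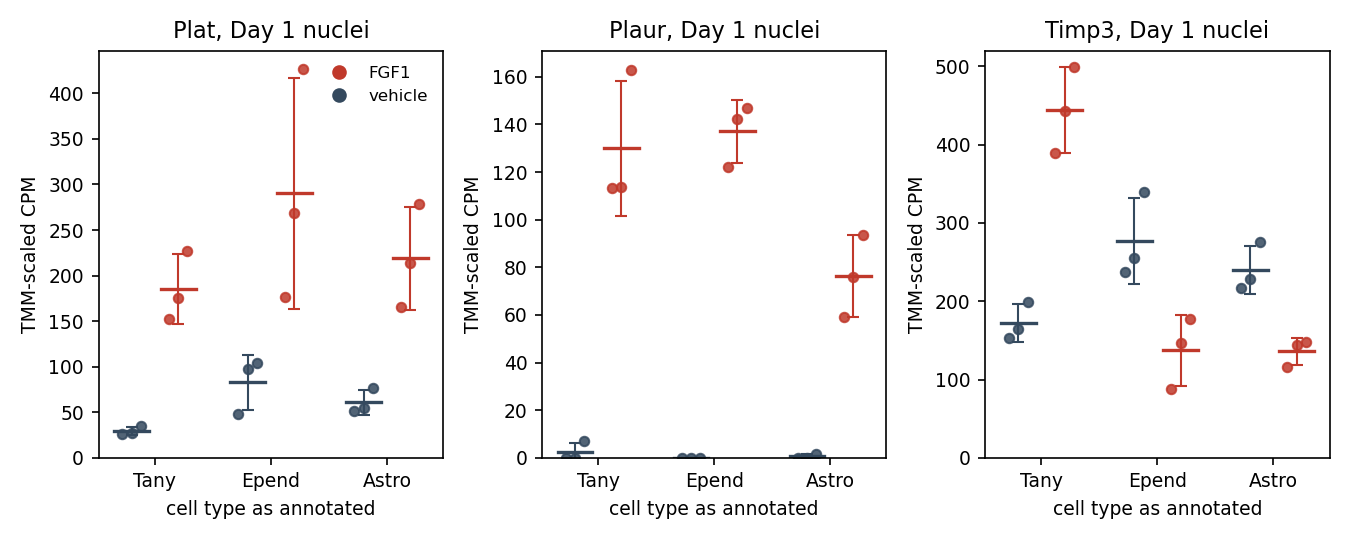
Plat, Plaur and Timp3 in Day 1 nuclei annotated as tanycytes, ependymal cells and astrocytes, in TMM-scaled CPM. Points are mice (3 per group), long bars are means and error bars are SD. The groups do not overlap in any of these panels, and Timp3 is the gene whose FGF1 mice lie above vehicle in Tany but below it in Epend and Astro.

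Timp1 had the widest reach. It had at most 5 UMIs in any type of any vehicle mouse and was higher after FGF1 in VLMC, astrocytes and tanycytes, and its FGF1 mice lay above all vehicle mice in 17 of 18 types, with n02 neurons as the exception. Over all genes with a UMI in these types, all FGF1 mice lay above all vehicle mice in 6.54% of pairs of gene and type. VLMC held the highest level, with 2602 and 2811 CPM in the 2 FGF1 mice with at least 10 such nuclei against 12.2, 21.3 and 0 CPM (2707 ± 148 against 11.2 ± 10.7, log2 7.60 ± 0.949, FDR 1.38e-10). That is 244 UMIs against 2, a pooled ratio of 215.6 (interval 59.1 to 1791). Only 40 FGF1 and 46 vehicle nuclei stood behind it.

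In Astro nuclei Timp1 stood at 942, 422 and 621 CPM against 0, 5.14 and 0 CPM. This was the type with the most Timp1 UMIs among those called, 1259 against 3 (662 ± 263 against 1.71 ± 2.97 CPM, log2 7.76 ± 0.908, FDR 0.00285, pooled ratio 234.8, interval 80.2 to 1140). Without vehicle replicate 1 its FDR was 0.0563, and all 3 vehicle UMIs came from replicate 2. In Tany nuclei it stood at 410, 221 and 377 CPM against 0, 0 and 13.3 CPM, or 211 UMIs against 1 (log2 6.56 ± 0.754, FDR 0.000541, pooled ratio 121.0, interval 21.5 to 4801). Epend nuclei had 132, 73.2 and 142 CPM, from 23 UMIs, and 0 in all 3 vehicle mice, a fold of at least 7.41, but did not pass the filter.

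Neurons carried Timp1 UMIs too, at lower or more variable levels. Oxt neurons (n06) had 448 and 67.4 CPM in the 2 FGF1 mice and 0 in 3 vehicle mice (51 UMIs, at least 28.0-fold higher), and Agrp neurons (n13), which drive feeding, had 241, 101 and 76.4 CPM against 0 (57 UMIs, at least 15.8-fold higher). Ventromedial Nr5a1 neurons (n29) had 39.7, 10.2 and 39.4 CPM against 0 (64 UMIs, at least 15.7-fold higher). Unmapped neurons, the largest label, were tested and not called (25.0 ± 12.1 against 1.00 ± 0.382 CPM, log2 4.53 ± 0.510, FDR 0.0572). FGF1 replicate 1 was the highest mouse in the Oxt, Agrp and unmapped neurons. It held 41 of the 51 UMIs in Oxt, 44 of 57 in Agrp and 46 of 64 in Nr5a1 neurons, and without it the lower bounds were 8.82, 8.75 and 9.58. Without FGF1 replicate 2 the bound in Oxt neurons was 59.4, and each bound in Oxt neurons without a mouse rests on 1 FGF1 mouse. With no filter on low counts, 16 pairs were called on Day 1 in place of 8, with Timp1 in 9 types (Astro, Epend, Tany, VLMC, Olig, unmapped neurons, n06, n13 and n29), Plaur in 4 (with Epend and VLMC added) and Plat in 3 (with Astro added).

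Marker genes of other cells moved in some of these types. The summed level of the 6 VLMC markers in Tany nuclei was 7.53, 6.65 and 340 CPM in FGF1 replicates 1, 2 and 3 and 0 to 20.2 CPM in vehicle mice. The Timp1 levels of these FGF1 mice, in the same order, were 410, 221 and 377 CPM, or 366, 233 and 378 CPM without TMM factors. In Astro nuclei the sum was 11.7, 37.6 and 249 CPM in FGF1 replicates 1, 2 and 3 and 32.0 to 49.4 CPM in vehicle mice. Timp1 stood at 942, 422 and 621 CPM in these FGF1 mice, or 817, 446 and 638 CPM without TMM factors. All 6 VLMC markers were at 0 in FGF1 n06 and n13 neurons, and in vehicle mice their sum was 50.2 and 0 CPM. In n29 neurons the sum was 11.2 CPM in FGF1 and 10.8 CPM in vehicle mice, and in unmapped neurons 11.1 and 9.01 CPM. Astrocyte markers stood at 85.9 CPM in FGF1 n06 and 65.5 CPM in FGF1 n13 neurons (107 and 93.1 CPM in vehicle). The part of VLMC RNA in the Timp1 levels of Tany, Astro and neurons, and of astrocyte RNA in neurons, was not tested. Within VLMC, with 2 FGF1 and 3 vehicle mice, the VLMC markers themselves were higher (3597 against 1175 CPM). Those of tanycytes (354 against 1218), pericytes (98.5 against 484) and arachnoid barrier cells (124 against 421) were lower. The make-up of that label thus differed between the groups, and its part in the Timp1 result was not tested. Other marker sums also differed without overlap of mice. Astrocyte markers were lower after FGF1 in Astro (2715 against 4440 CPM), Tany (1047 against 2157) and Epend (672 against 1750). Ependymal markers were lower in Tany (104 against 436) and in Epend itself (1255 against 3196), and neuron markers were higher in Epend (4088 against 2428). Oligodendrocyte markers were lower in Astro (207 against 726), Epend (87.3 against 267) and VLMC (200 against 486), and tanycyte markers were lower in Epend (257 against 434), while COP markers were higher in Astro (237 against 167). In VLMC the sums of COP, endothelial, smooth muscle and neuron markers were lower as well and that of macrophage markers was higher, and in Epend those of smooth muscle and arachnoid barrier cells were lower. The part of these in the results for Plat, Plaur, Timp1 and Timp3 was not tested. Timp1 UMIs appeared in all 18 types after FGF1, and free RNA was not measured.

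**Figure D2:**
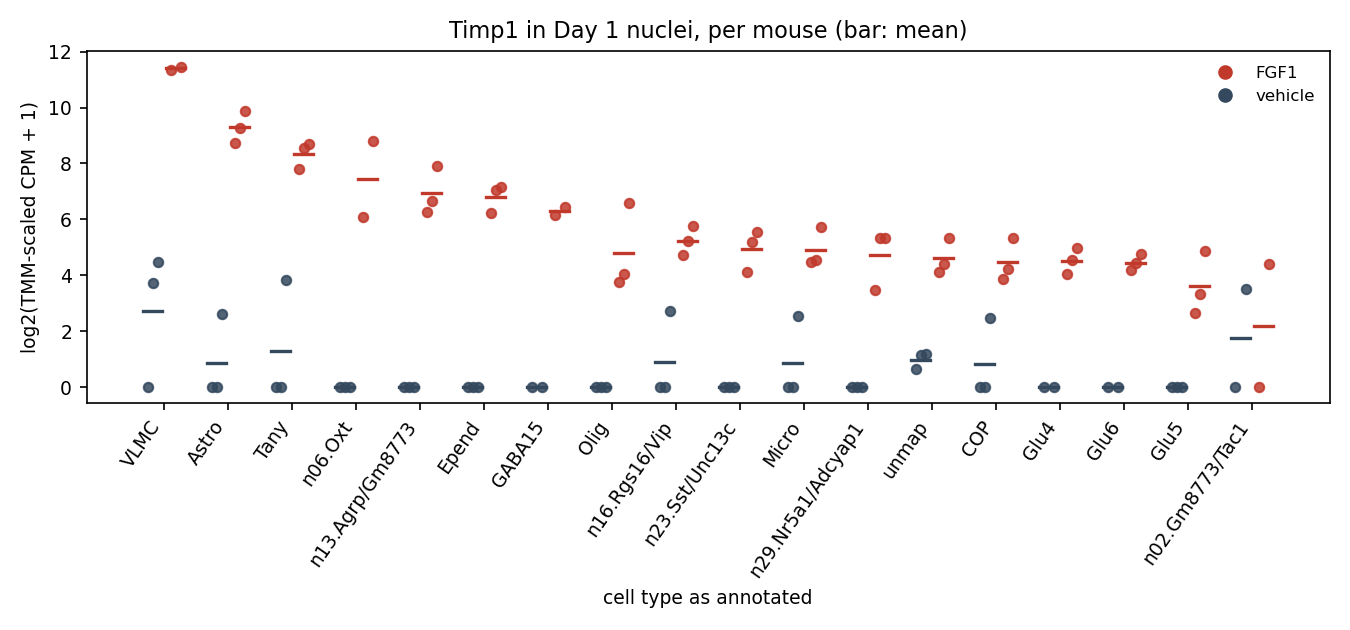
Timp1 in the 18 cell types of Day 1 nuclei with enough nuclei, as log2(TMM-scaled CPM + 1). Each point is 1 mouse and each bar a group mean. Types are ordered by the FGF1 level, and VLMC, Astro and Tany lead among FGF1 mice. Most vehicle points lie at 0, and the highest (VLMC, Tany and n02, at 10.3 to 21.3 CPM) are single UMIs.

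Timp3, the matrix-bound inhibitor, was higher in tanycytes but not in ependymal cells or astrocytes. In Tany nuclei it had 499, 443 and 390 CPM in FGF1 mice and 164, 153 and 199 CPM in vehicle mice, and it was called higher (444 ± 54.9 against 172 ± 23.7, log2 1.38 ± 0.352, FDR 0.0266). In Epend nuclei it had 88.1, 146 and 178 CPM against 339, 255 and 237 CPM (log2 -0.97 ± 0.368, FDR 0.0756), and in Astro nuclei 116, 145 and 148 CPM against 275, 218 and 228 CPM (log2 -0.83 ± 0.419, FDR 0.602). Neither was called. The groups did not overlap in either type, but the share of all genes with FGF1 mice below all vehicle mice was not counted. In Epend, Timp3 passed the filter on low counts through the vehicle mice, so its direction there was fixed. In VLMC, where vehicle nuclei held the most Timp3 (411 ± 91.2 CPM), FGF1 mice had 419 ± 193 CPM (n = 2). The Tany call was lost without FGF1 replicate 2 (FDR 0.0709) and without vehicle replicate 1 (0.186), 2 (0.105) or 3 (0.0771), with no filter on low counts (0.0575) and with the batch number of the deposited metadata, whose meaning is not stated, as a term (0.115), while the log2 fold change stayed between 1.26 and 1.45.

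The difference in the effect of FGF1 between these cell types was tested in a fit with the mouse as a block. Of 19 tests on members in 3 pairs of types, 2 were called against a background of 0.419% (49 of 11705), and both were of Timp3. Its effect was lower in Epend than in Tany by -2.33 ± 0.512 on the log2 scale (FDR 0.0179) and lower in Astro than in Tany by -2.26 ± 0.401 (FDR 0.0109). The first was lost without FGF1 replicate 1 (FDR 0.0501) or vehicle replicate 1 (0.144) or 2 (0.0856), and the other without FGF1 replicate 1 (0.0867) or vehicle replicate 1 (0.367) or 3 (0.0523). For Plat the differences from Tany were -0.77 ± 0.690 (Epend) and -0.74 ± 0.536 (Astro), and for Timp1 0.78 ± 0.988 and 1.24 ± 1.87, and none was called.

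Serpine2, the serpin, was abundant in vehicle astrocytes (312 ± 86.1 CPM) and ependymal cells (252 ± 95.3 CPM) and had no call in the 9 types tested on Day 1. In Astro nuclei FGF1 mice held 511, 171 and 124 CPM and vehicle mice 320, 394 and 222 CPM, which overlap. The only unadjusted p under 0.05 was in n29 neurons (65.1 ± 25.1 against 35.5 ± 7.12 CPM, log2 0.90, FDR 0.377). Timp2 had no call in 8 types, with log2 fold changes of -0.53 to 0.41. Timp4 was lower in all 5 types where it was tested, by -1.45 to -0.13 on the log2 scale, and none was called. Its largest difference was in the Olig label (11.8 ± 6.12 against 32.8 ± 7.79 CPM, FDR 0.699). Timp4 passed the filter on low counts there through the vehicle mice, so that direction was fixed.

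On Day 5, in nuclei of other mice, only Plat in astrocytes was called among 35 tests in 11 types, against a background of 0.288% of all tests (206 of 71541) and of 0.625% in Astro nuclei. Plat stood at 136 and 221 CPM in the 2 FGF1 mice and 52.4 and 33.2 CPM in the 2 vehicle mice, and the groups did not overlap (179 ± 60.5 against 42.8 ± 13.6, log2 1.95 ± 0.415, FDR 0.0323). Without FGF1 replicate 45 the FDR was 0.597, in a fit where the lone FGF1 mouse was assumed to vary like the vehicle mice, and with the batch as a term, an alternative chosen after the data were seen, it was 0.0805. The level of Plat was higher in the FGF1 mouse in both batches, by 83.3 and 188 CPM. DESeq2 gave no adjusted p for it. Marker sums in these Astro nuclei were also higher after FGF1 without overlap of mice, at 7410 (6626 to 8194) against 5064 (4792 to 5337) CPM for the 6 astrocyte markers, 219 against 135 CPM for ependymal markers and 305 against 181 CPM for COP markers. Their part in the Plat result was not tested. A further 3 pairs had an unadjusted p under 0.05, namely Plat in unmapped neurons (log2 0.98, FDR 0.460), Timp4 in Astro (log2 -0.99, FDR 0.344) and Serpine2 in COP, a label with neuronal RNA on Day 1 (log2 -0.94, FDR 0.269).

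Timp1 and Plaur were near 0 in Day 5 nuclei and could not be tested there. Over all nuclei of a mouse, Timp1 on Day 1 was at 136, 43.4 and 118 CPM in FGF1 mice and 0.902, 1.67 and 0.487 CPM in vehicle mice, which do not overlap (exact two-sided permutation p = 0.1, the smallest that 3 against 3 mice allow). On Day 5 it was at 1.01 and 1.71 CPM in FGF1 mice (37 UMIs in 7986 nuclei) and 0.764 and 0.735 CPM in vehicle mice (10 UMIs in 3773 nuclei; exact p = 0.333, the smallest possible). Plaur had 14.5 ± 3.99 against 0.761 ± 0.301 CPM on Day 1 and 0.643 ± 0.0445 against 0.286 ± 0.405 CPM on Day 5.

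Whether the effect differed between the days was tested over the 4 groups of nuclei, and none of the 39 tests on members in 11 types was called (edgeR), against 0.00784% of all tests (6 of 76499). For 3 of the 39 no call was possible, since almost no Day 5 UMIs were there to compare. These were Timp1 in Astro (7 UMIs in FGF1 and 0 in vehicle mice on Day 5) and in n29 neurons (1 and 0), and Plaur in Astro (0 and 0). Of the 39, 4 had an unadjusted p under 0.05. These were Timp1 (4.08 ± 1.17, FDR 1.000) and Plaur (3.17 ± 1.42, FDR 1.000) in unmapped neurons, Serpine2 in COP (1.58 ± 0.518, FDR 0.462) and Timp3 in Astro (-1.31 ± 0.571, FDR 0.609), as Day 1 minus Day 5. Tany, Epend and VLMC held too few nuclei on Day 5, so the types with the clearest Day 1 calls could not be compared. For Plat in Astro the difference between the days was -0.14 ± 0.616. The days were also different mice processed apart, which cannot be told apart from the day.

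In whole cells of Day 5 vehicle mice the members differed in which cell classes held them. Plat was highest in endothelial cluster 3 (252 ± 42.5 CPM), oligodendrocyte cluster 11 (206 ± 103), VLMC cluster 13 (197 ± 95.2, n = 4) and pericyte cluster 15 (179 ± 80.9), stood at 101 ± 23.1 in ependymal cluster 6 and at 98.8 ± 40.0 and 41.9 ± 4.89 in astrocyte clusters 4 and 1, and was low in tanycyte clusters 0, 10 and 7 (12.6, 9.27 and 4.69) and microglia (3.92 ± 3.94). Neighbours in that order overlapped throughout. Plaur had its highest means in COP (17.1 ± 25.3), microglia (12.1 ± 23.1) and endothelial cells (11.5 ± 6.49), and was at 0 in the tanycyte, ependymal, VLMC, pericyte and macrophage clusters. Those 3 means rest on 5, 15 and 47 UMIs, and their mice overlapped, so they have no clear order. Timp1 was at 0 in all 16 clusters of vehicle mice.

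Serpine2 was led by oligodendrocyte precursors (OPC, 1060.5 ± 78.4 CPM) and astrocyte clusters 4 (982 ± 32.4) and 1 (835 ± 89.1), and these did not overlap ependymal cells (565 ± 95.3), the next in order, although pericytes varied from 163 to 893 CPM. Timp2 was highest in tanycyte cluster 7 (427 ± 85.5), VLMC (336 ± 173, n = 4), tanycyte clusters 10 and 0 (324 ± 112 and 307 ± 20.2) and ependymal cells (287 ± 48.5), after which came OPC (148 ± 19.0). Ependymal cells did not overlap OPC, while the lowest VLMC mouse (119) did. Timp3 was led by VLMC (2380.4 ± 896, n = 4), clear of endothelial cells (892 ± 155) and astrocyte cluster 1 (707 ± 57.3). Timp4 was highest in astrocyte cluster 1 (355 ± 56.6), COP (323 ± 84.0) and astrocyte cluster 4 (278 ± 81.0), and these overlapped.

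As a description over 16 clusters and 13102 genes, the genes with the pattern most like each member were Ncan (r = 0.947), Gpr37l1 (0.929) and Adcyap1r1 (0.915) for Serpine2, Gpr37l1 (0.936), Apba2 (0.895) and Ppp1r14c (0.883) for Timp4, Traf7 (0.911), Plekhh3 (0.910) and Nr1d1 (0.901) for Timp3 and Slc9a3r2 (0.853), Zbtb44 (0.825) and Mxd4 (0.815) for Plat. For Timp2 they were Trmt112 (0.856), Cab39l (0.814) and Tle3 (0.812), and for Plaur Sema4c (0.839), Nfkbib (0.821) and Tab2 (0.791). All clusters came from the same 6 libraries, so r carries no test. The Plaur pattern also rests on few UMIs in most clusters.

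**Figure D3:**
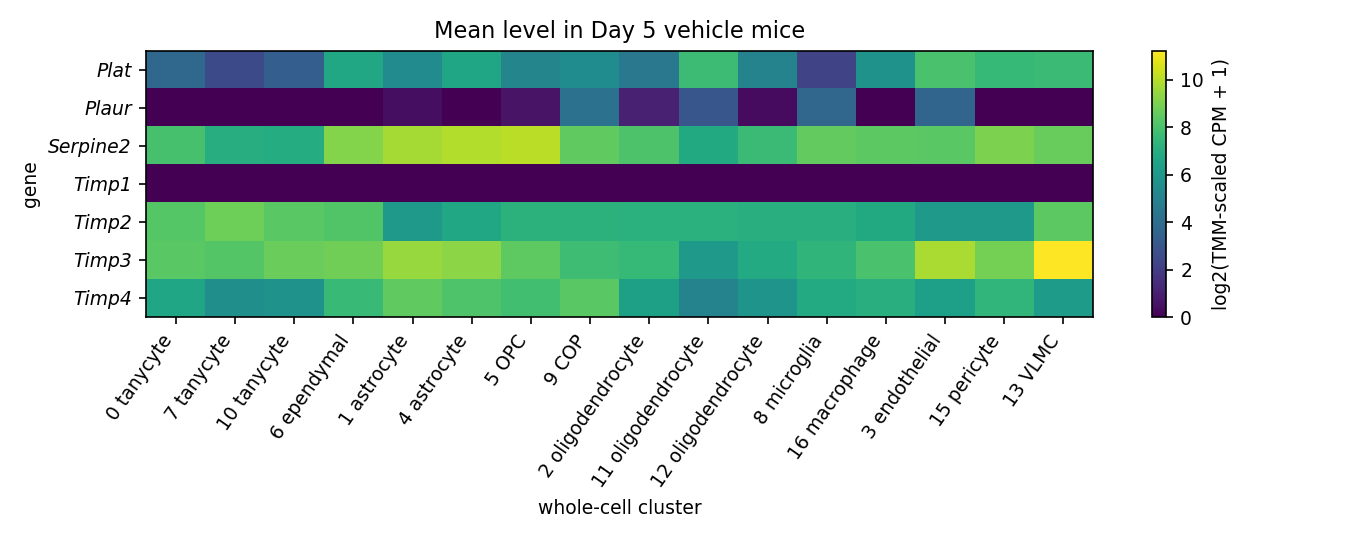
Mean level of the 7 genes in the 16 tested clusters of Day 5 whole cells from 6 vehicle mice, as log2(TMM-scaled CPM + 1). Colour runs from 0 (dark) to the VLMC level of Timp3 (bright). Timp1 is dark throughout, and Serpine2 is brightest in the OPC and astrocyte clusters and Timp4 in the astrocyte and COP clusters.

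After FGF1, 4 of 63 tests on members in whole cells were called, against a background of 1.75% of all tests (1180 of 67441). Plat rose in an astrocyte and a tanycyte cluster, and Serpine2 fell in that tanycyte cluster and Timp3 in ependymal cells. In astrocyte cluster 1 (background 0.404%), Plat ran from 59.6 to 166 CPM with a median of 98.9 in FGF1 mice and from 36.1 to 49.5 CPM with a median of 41.6 in vehicle mice. No FGF1 mouse overlapped a vehicle mouse (107 ± 38.4 against 41.9 ± 4.89, log2 1.46 ± 0.182, FDR 2.17e-06), and FGF1 was higher in all 6 batches. In astrocyte cluster 4 Plat ran from 134 to 188 against 32.9 to 157 CPM and was not called (log2 0.63 ± 0.191, FDR 0.158), but it was with no filter on low counts (log2 0.76 ± 0.189, FDR 0.0178). COP markers in cluster 4 were also higher (312 against 175 CPM, with no overlap of mice), and their part in this was not tested. Because 69.0% of FGF1 astrocytes were in cluster 4 and 91.9% of vehicle astrocytes in cluster 1, the clusters were also merged by name, which gave 156 ± 23.6 against 48.4 ± 11.8 CPM (log2 1.67 ± 0.144, FDR 8.08e-09). This merged value also carries the shift between clusters, since Plat in vehicle mice stood at 98.8 CPM in cluster 4 and 41.9 CPM in cluster 1.

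The filter left out Plat in some other clusters. Microglia of FGF1 mice had 32.6 ± 20.8 CPM against 3.92 ± 3.94 CPM, from 45 and 8 UMIs, and with no filter on low counts Plat was called higher there (log2 2.43 ± 0.534, FDR 0.00367). In oligodendrocyte cluster 11, of which 88.0% were FGF1 cells, Plat had 54.6 ± 27.4 against 206 ± 103 CPM and was called lower with no filter (log2 -1.86 ± 0.280, FDR 5.92e-08), although the mice overlapped.

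In tanycyte cluster 0 (background 5.27%), Plat was low in both groups. It ran from 11.5 to 31.7 CPM (median 26.4) in FGF1 and from 7.06 to 23.1 CPM (median 10.8) in vehicle mice, and the groups overlapped (log2 1.03 ± 0.266, FDR 0.0209). Within batches FGF1 was higher in 6 of 6, by 0.712 to 24.6 CPM. The call was lost without FGF1 replicate 7 (FDR 0.0678) or 10 (0.0626), without vehicle replicate 20 (0.0779) or 25 (0.0848), and with the 3 tanycyte clusters merged (17.8 ± 4.18 against 10.6 ± 4.91 CPM, FDR 0.0606). Serpine2 ran from 124 to 206 CPM (median 180.2) in FGF1 and from 200 to 290 CPM (median 245) in vehicle mice of cluster 0 and fell by 0.52 ± 0.129 on the log2 scale (FDR 0.0153). FGF1 was lower in 5 of 6 batches, and the call was lost without FGF1 replicate 7 (FDR 0.0634). Astrocyte markers in cluster 0 were also lower (2503 against 4143 CPM, with no overlap of mice), while tanycyte markers were close (1238 against 1217 CPM), and the part of this in the Serpine2 result was not tested. Over the merged tanycytes Serpine2 had 131 ± 33.0 against 206 ± 38.2 CPM (FDR 0.0228). That value also carries a shift between clusters, since cluster 7 held 29.6% of FGF1 and 11.3% of vehicle tanycytes and had 125 CPM of Serpine2 in vehicle mice against 247 CPM in cluster 0.

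In ependymal cluster 6 (background 1.28%), Timp3 fell. FGF1 mice held 219 to 320 CPM (median 268) and vehicle mice 262 to 556 CPM (median 465), so that only vehicle replicate 22, at 262 CPM, lay within the FGF1 range (log2 -0.71 ± 0.160, FDR 0.0145). The call was lost without FGF1 replicate 21 (FDR 0.0536) or vehicle replicate 20 (0.0522) or 29 (0.0653). Ependymal markers were at 7087 CPM in FGF1 and 6673 CPM in vehicle mice. Plat in the same cluster had 37.8 to 82.2 against 66.1 to 129 CPM and narrowly missed the threshold (log2 -0.65 ± 0.182, FDR 0.0537).

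Between the largest cluster of each of the 3 classes, 4 of 15 tests of a difference in effect were called, against 1.25% of all such tests (343 of 27383). The effect on Plat was lower in ependymal cluster 6 than in tanycyte cluster 0, by -1.70 ± 0.258 on the log2 scale (FDR 1.67e-06), and higher in astrocyte cluster 1 than in cluster 6, by 2.10 ± 0.235 (FDR 2.90e-15). Timp3 in cluster 0 itself was close between the groups, at 278 to 382 CPM (median 306) in FGF1 and 212 to 391.7 CPM (median 322) in vehicle mice (log2 -0.04 ± 0.122, FDR 0.909), beside 444 against 172 CPM in Day 1 Tany nuclei. The effect on Timp3 was lower in cluster 6 than in cluster 0 by -0.59 ± 0.132 (FDR 0.0104), a call lost without FGF1 replicate 21 (0.0753) or vehicle replicate 20 (0.0810) or 29 (0.0588). The effect on Serpine2 was higher in cluster 1 than in cluster 0 by 0.58 ± 0.133 (FDR 0.00187).

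**Figure D4:**
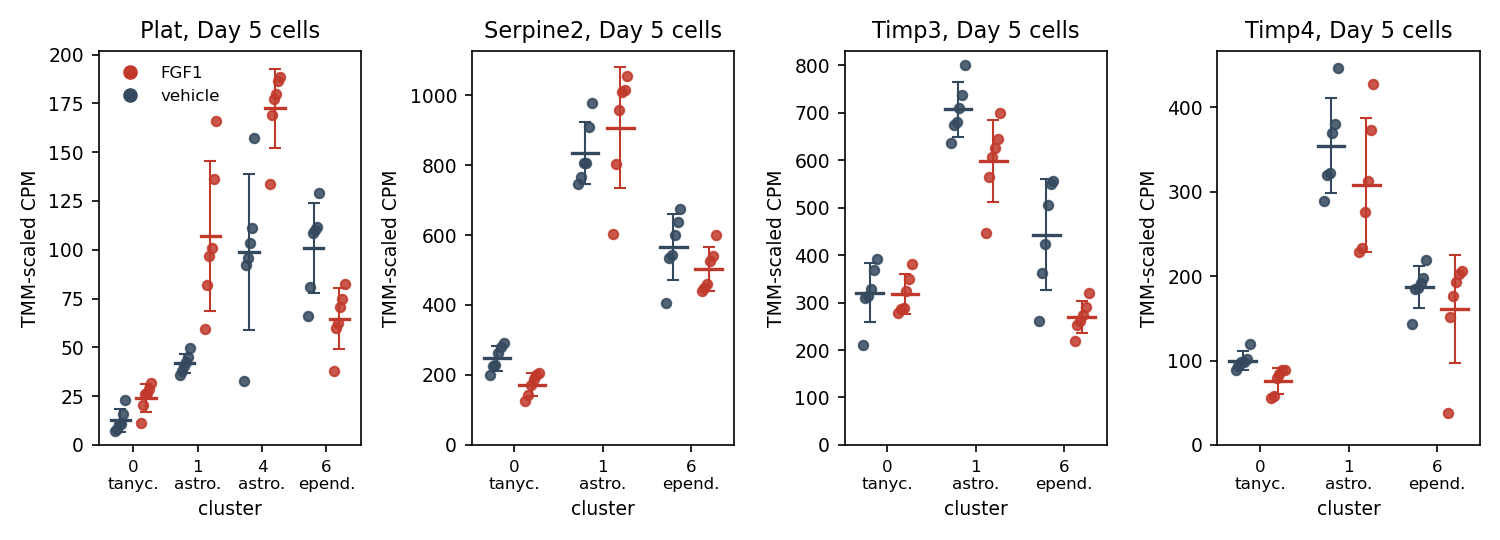
Plat, Serpine2, Timp3 and Timp4 in tanycyte cluster 0, astrocyte clusters 1 and 4 (cluster 4 for Plat only) and ependymal cluster 6 of Day 5 whole cells, in TMM-scaled CPM. Points are mice (6 per group), long bars are means and error bars are SD. Plat in cluster 1 is apart between the groups, and Timp3 in cluster 6 is lower after FGF1 with 1 vehicle mouse in the FGF1 range.

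Timp1 was also found in whole cells of FGF1 mice alone. Over all cells of a mouse it stood at 2.80 to 7.41 CPM with a median of 5.33 in the 6 FGF1 mice, from 235 UMIs in 25767 cells, and at 0 in all 6 vehicle mice. A count of 0 in 29123 vehicle cells allows up to 0.0103% of cells with a UMI. This limit covers counting error only, not the spread between the 6 mice, and does not bound the share of cells that express the gene at this depth. FGF1 cells held at least 74.2-fold more (exact two-sided permutation p = 0.00217, the smallest that 6 against 6 mice allow, 0.00433 adjusted over Timp1 and Plaur). This test over all cells was chosen after the data were seen. Its splits, like those for Plaur and the nuclei, ignored the batch numbers. Each batch number held 1 FGF1 and 1 vehicle mouse. The UMIs lay in 15 of 20 clusters, with 98 in the 3 tanycyte clusters (43 in cluster 0, 45 in cluster 7 and 10 in cluster 10), 42 in VLMC, 36 in astrocyte cluster 4, 13 in endothelial cells, 11 in ependymal cells, 10 in unnamed cluster 20 and 7 in astrocyte cluster 1. As a mean over FGF1 mice, the level was 40.6 ± 37.0 CPM in VLMC (n = 5), 9.39 ± 12.5 in tanycyte cluster 10, 8.58 ± 9.12 in tanycyte cluster 0, 6.93 ± 2.59 in tanycyte cluster 7 (n = 5) and 6.32 ± 6.89 in astrocyte cluster 4. The spread between mice was as large as most of these means, so the tanycyte and astrocyte clusters have no clear order. Cluster 20, with 45 FGF1 cells, had 123 CPM pooled from 2 mice. The VLMC, astrocyte and tanycyte values are below those of the same classes in Day 1 FGF1 nuclei, which are another preparation and cohort, so this was not tested. With no filter on low counts Timp1 was called in clusters 0, 1, 3, 6 and 7 (FDR 0.00172 to 0.0457).

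Plaur over all cells had 2.26, 2.46, 2.70, 3.46, 4.08 and 8.65 CPM in FGF1 mice and 0 to 3.25 CPM in vehicle mice. The groups overlapped, and the difference rested in part on FGF1 replicate 6 at 8.65 CPM (3.93 ± 2.41 against 1.89 ± 1.10, exact two-sided permutation p = 0.0433). Its UMIs after FGF1 were mainly in COP (41), microglia (36) and endothelial cells (36), and COP made up more of the FGF1 cells (1583 against 164 cells). Within a cluster the pooled levels were 11.7 against 14.6 CPM in COP, 26.2 against 11.1 in microglia and 12.9 against 11.9 in endothelial cells. In tanycyte clusters 0, 7 and 10 of FGF1 mice Plaur had 2, 3 and 0 UMIs.

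**Figure D5:**
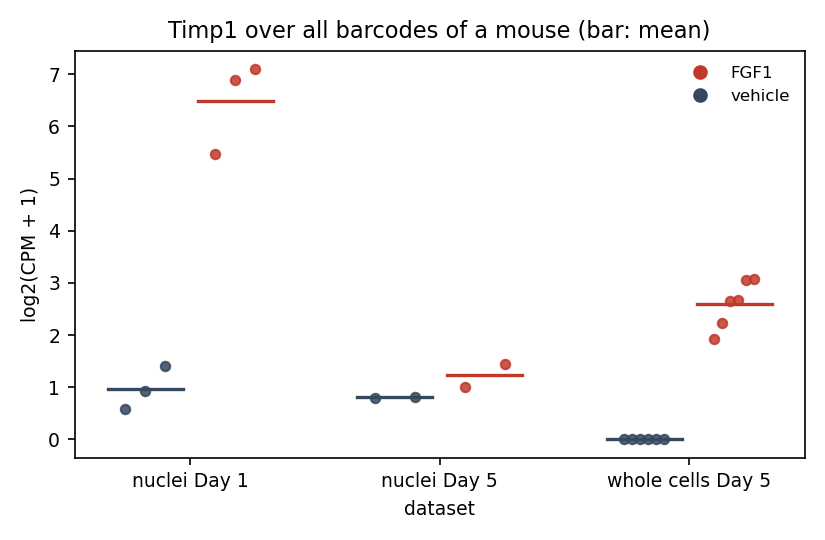
Timp1 over all nuclei or cells of each mouse, as log2(CPM + 1). Each point is 1 mouse and each bar a group mean. FGF1 mice stand above vehicle mice in the Day 1 nuclei and the Day 5 whole cells, where all vehicle mice are at 0, and the distance is small in the Day 5 nuclei.

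Serpine2, Timp2 and Timp4 gave few other calls. Timp4 was lower in all 10 clusters where it was tested, by -0.81 to -0.06 on the log2 scale, with none called. With no filter on low counts it was called lower in tanycyte cluster 10 (log2 -1.59 ± 0.351, FDR 0.00470) and endothelial cluster 3 (FDR 0.0210). In endothelial cells it ran from 24.6 to 77.7 against 69.0 to 94.3 CPM (log2 -0.71 ± 0.193, FDR 0.0651). Merged by name it was called in oligodendrocytes (42.7 ± 12.6 against 74.0 ± 12.6 CPM, log2 -0.76 ± 0.166, FDR 0.0128) and tanycytes (56.1 ± 14.8 against 83.8 ± 9.23 CPM, log2 -0.54 ± 0.139, FDR 0.0230). These merged values carry a shift between clusters too. Oligodendrocyte cluster 11, with 31.4 CPM of Timp4 in vehicle mice against 81.4 CPM in cluster 2, held 37.5% of FGF1 and 2.47% of vehicle oligodendrocytes. Tanycyte cluster 7, with 46.6 CPM in vehicle mice against 99.98 CPM in cluster 0, held 29.6% of FGF1 and 11.3% of vehicle tanycytes. The inhibitor Timp2 was not called in 14 clusters and came closest in COP (71.5 ± 16.2 against 146 ± 68.5 CPM, FDR 0.0552). Serpine2 was lower in 13 of 16 clusters, and in oligodendrocyte cluster 12, where 4 FGF1 mice had enough cells, it had 80.0 ± 56.3 against 201 ± 38.0 CPM (FDR 0.0565, and 0.0129 with no filter). In the merged astrocytes Serpine2 and Timp2 were called higher (1039 ± 71.1 against 849 ± 82.3 CPM, FDR 0.0440, and 99.5 ± 23.5 against 68.2 ± 14.5 CPM, FDR 0.0366), while within cluster 1 and cluster 4 neither was called. Since cluster 4 held most FGF1 astrocytes and cluster 1 most vehicle astrocytes, the merged values carry the shift between clusters as well. For Timp4 the partner gene Syn2 on the opposite strand was lower in the OPC cluster 5 (log2 -0.64, FDR 0.0201) and not called in any other cluster or type. Its log2 fold change was below 0 in every whole-cell cluster where it was tested. These include tanycyte cluster 0 (-0.54, edgeR FDR 0.101) and endothelial cluster 3 (-0.61, FDR 0.304). The part of Syn2 reads in the Timp4 levels was not tested.

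Other genes of the same system were read from 3 lists. Of 18 genes of plasminogen activation, 5 were tested in Day 1 Tany nuclei and 2 rose, 2 of 2 rose in Epend, 2 of 8 in Astro and 0 of 6 in VLMC, and none fell. Of all genes tested, 9.14% were called in Tany, 19.0% in Epend, 1.55% in Astro and 2.26% in VLMC, and the lists were chosen with earlier results known. The median log2 fold change of the tested genes was 0.86 in Tany, 3.39 in Epend, 0.57 in Astro and 0.87 in VLMC, beside 0.03, -0.05, -0.01 and -0.01 over all genes tested. In Tany these were the subunits of the annexin A2 receptor for plasminogen and Plat, S100a10 (801 ± 398 against 59.4 ± 22.3 CPM, FDR 0.00135) and Anxa2 (1069 ± 502 against 146 ± 61.3 CPM, FDR 0.00344). Epend nuclei had the same receptor genes higher, S100a10 at 939 ± 27.1 against 57.5 ± 19.3 CPM and Anxa2 at 1661 ± 177 against 251 ± 89.2 CPM. In Astro nuclei Anxa2 (291 ± 17.0 against 15.3 ± 6.28 CPM, FDR 0.00285) and S100a10 (744 ± 353 against 30.7 ± 32.7 CPM, FDR 0.0386) rose. S100a10 in Tany, Epend and Astro and Anxa2 in Astro needed the FGF1 mice to pass the filter on low counts. The counts and medians of this list were therefore partly fixed by the filter.

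Of 20 genes listed with the matrix metalloproteinases, 1 of 4 tested was called in VLMC. This was Mmp3 (stromelysin 1), at 436 ± 217 CPM in the 2 FGF1 mice and 0 in all 3 vehicle mice (FDR 3.39e-05). It passed the filter on low counts through the FGF1 mice alone, so its direction was fixed. The VLMC markers under this label stood at 3597 against 1175 CPM, and their part in the Mmp3 level was not tested. In Tany 1 of 4 rose, Cd63, a partner of Timp1 at the cell surface (log2 1.74 ± 0.425, FDR 0.0220), and 0 of 3 in Epend and 0 of 4 in Astro. Of 22 ADAM and ADAMTS proteases, Adam23, which lacks protease activity, fell in Tany (50.7 ± 23.1 against 253 ± 62.2 CPM, FDR 0.00652), Adamts20 fell in Epend (263 ± 51.5 against 758 ± 322 CPM, FDR 0.00536) and Adamts1 rose in Astro (45.6 ± 4.69 against 5.12 ± 0.595 CPM, FDR 0.0247). Ependymal markers in Epend were also lower (1255 against 3196 CPM), and their part in the Adamts20 result was not tested. Adam12 rose in Tany (237 ± 99.9 against 29.0 ± 32.5 CPM, log2 3.25 ± 0.635, FDR 0.00688). Adamts1 in Astro and Adam12 in Tany also needed the FGF1 mice to pass the filter. Cd63 in Tany is named outside the rule, after its value was seen. The counts were 1 higher and 1 lower of 5 tested in Tany, 1 lower of 2 in Epend, 1 higher of 8 in Astro and 0 of 1 in VLMC. The median log2 fold changes of the ADAM and ADAMTS genes were -0.88, -1.08, -0.04 and 0.70 in the same order. For the genes listed with the matrix metalloproteinases they were 0.06, 0.85, -0.10 and 1.03. In Day 5 Astro nuclei 0 of 8, 0 of 5 and 0 of 11 tested genes of the 3 lists were called by edgeR.

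In tanycyte cluster 0 of the Day 5 whole cells, where 5.27% of all tested genes were called, 2 of 8 tested plasminogen genes rose, Anxa2 (254 ± 49.6 against 168 ± 8.30 CPM, FDR 0.00167) and S100a10 (302 ± 82.4 against 202 ± 46.4 CPM, FDR 0.0355), and F3, the coagulation starter tissue factor, fell (67.3 ± 20.1 against 135 ± 22.2 CPM, FDR 0.000342). F3 was among the top genes of astrocyte cluster 1, and astrocyte markers in cluster 0 were lower too (2503 against 4143 CPM). Their part in the F3 result was not tested. In ependymal cluster 6 (1.28% of all genes called), 1 of 6 rose, Anxa2 (473 ± 88.6 against 308 ± 37.4 CPM, FDR 0.0358), and 1 fell, again F3 (43.4 ± 24.3 against 106 ± 40.8 CPM, FDR 0.0348). Cd63 was the 1 gene of 4 tested with the metalloproteinases that rose in cluster 0 (1087 ± 194 against 809 ± 127 CPM, FDR 0.0282). In astrocyte cluster 1 (0.404%), 0 of 6, 0 of 3 and 0 of 7 were called.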

How the data were processed

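Droplet libraries (10x 3′ v2) were made from hypothalamic nuclei and dissociated cells of 22 mice. The authors aligned them to GRCm38 with Cell Ranger (version 1.2 in the submitters' processing notes), with introns for nuclei, and deposited whole-number UMI counts per gene and barcode. The UMI totals computed here matched the deposited metadata for all 24965 nuclei and 54890 cells. The deposited normalized values were not used. The metadata of the whole cells also hold, as deposited by the authors, the percent of each cell's UMIs that were mitochondrial or ribosomal. Doublets and neurons had been removed from the whole cells by the authors (Scrublet for doublets). The authors left Scrublet out for the nuclei, and no doublet caller was run here.

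Counts were summed per mouse and annotated type (nuclei) or numbered cluster (cells), for mice with at least 10 barcodes and types with at least 2 mice per group, and 660 nuclei labelled filtered were left out. FGF1 was compared with vehicle in each dataset, without covariates, by edgeR 4.0.16 in R 4.3.3 (filterByExpr, TMM scaling, robust glmQLFit, glmQLFTest). The steps were tested on simulated data. Differences between cell types were fitted with the mouse as a block. Groups and replicate numbers come from the sample labels. Where vehicle had no UMI, folds are lower bounds against 3 counts over the group, and with 1 to 3 UMIs an exact binomial interval (95%) is given. Clusters took a name from at least 3 markers (a UMI in at least 10% of cells and a level at least 2 times that of other cells), with at least 100 cells, by a rule set after their profiles were seen. The members and gene lists were chosen with earlier results of these data known, and a gene of the plasminogen list was taken out of it and is not reported here. All 7 members were named, and of the lists at most 4 called genes with the lowest FDR per main type. Alternatives were RLE scaling, DESeq2 1.42.0, no filter on low counts, at least 20 barcodes, a replicate block, batch as a term, merged clusters, the 20% limit on mitochondrial or ribosomal UMIs (50508 cells) and leaving out each mouse.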

Additional observations from a re-analysis of the deposited data

Results flagged for a closer look

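Plaur over all whole cells was 8.65 CPM in FGF1 replicate 6, far from the other 5 FGF1 mice (2.26 to 4.08 CPM), with a gap of 0.715 of the group's range. It was the only such sample in 11 groups of 6 mice tested, and chance alone marks about 1 in 20 groups.

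The effect of FGF1 differed between cell types of the same mice in 6 tests of the difference (edgeR, FDR over all genes of the pair). In Day 1 nuclei the effect on Timp3 was lower in Epend than in Tany (-2.33, FDR 0.0179) and lower in Astro than in Tany (-2.26, FDR 0.0109). In Day 5 whole cells the effect on Timp3 was lower in ependymal cluster 6 than in tanycyte cluster 0 (-0.59, FDR 0.0104), and so was the effect on Plat (-1.70, FDR 1.67e-06). The effect on Plat was higher in astrocyte cluster 1 than in cluster 6 (2.10, FDR 2.90e-15), and that on Serpine2 was higher in cluster 1 than in cluster 0 (0.58, FDR 0.00187).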

How the results depend on the processing

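Of 19 called results, 5 (Timp1 and Plaur, 57 alternatives) had a direction fixed by the filter on low counts and say nothing of stability. The other 14 kept their direction in 191 alternatives, of which 163 left the call in place. Of these, Plat in Tany (12 alternatives) and Epend (11) on Day 1 had a direction fixed in the same way. The count of 8 on Day 1 was 16 with no filter on low counts and 8 with a replicate block, which cost the call of Timp3 in Tany (FDR 0.0694). Same-numbered Day 1 mice did not deviate together (correlations of -0.230, -0.327 and 0.460), so the numbers were not taken to pair mice, and Day 5 groups shared no numbers. Each batch number held 1 FGF1 and 1 vehicle mouse, and the main fits did not use it. Day 1 mice of the same batch had correlations of -0.492, 0.071 and -0.579. Leaving out single mice gave 5 (without vehicle replicate 1) to 8. The count of 1 in Day 5 nuclei was 0 with DESeq2, 0 with batch as a term and 0 to 2 with single mice left out (0 without FGF1 replicate 45, 2 without vehicle replicate 38, each with the lone mouse of a group assumed to vary like the other group). The count of 4 in whole cells was 15 with no filter on low counts, 7 with clusters of 1 name merged and 3 to 10 with single mice left out (7 without FGF1 replicate 36 or vehicle replicate 22, 10 without vehicle replicate 35). Differences between types stood at 6, with 4 to 6 when single mice were left out, and those between days at 0 in every setting, with no call possible in 3 of the 39 tests. The cause of these changes was not tested, beyond the wider set of genes that no filter lets in. Timp1 and Plaur had few UMIs in most types and were tested in 4 and 2 of 18 types on Day 1 and in 0 on Day 5.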
